A study of Mus musculus with 2 samples.

Results

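The steroidogenic acute regulatory protein gene Star and 7 further genes assigned to the delivery of cholesterol to mitochondria were examined in the adrenal gland. The 8 genes were chosen by name: Star, Stard3, Stard4, Stard5 and Stard7, which encode proteins with a START lipid-binding domain, Tspo, Dbi and Acbd3. They were matched by gene symbol among the 55536 annotated genes of the gene table, of which 22028 are protein-coding, and all 8 were found, with 37 annotated transcripts in all. Total RNA depleted of ribosomal RNA was sequenced from adrenal tissue of adult male mice, 8 to 10 months old, of a cross labelled 5xFAD X Cast. 5xFAD mice carry human transgenes under the neuronal Thy1 promoter and serve as an Alzheimer's disease model. CAST mice descend from wild-caught animals. The labels do not say whether each mouse carried the transgenes. The 2 libraries, labelled biological replicates 2 and 1, form 1 group, so the design holds no contrast between conditions, and no p-value was computed. An exact sign-flip test on 2 libraries has a smallest two-sided p of 0.5. The labels name a separate tissue sample for each library but the same donor entry, so the spread between them may not be that between animals. Levels are in TPM, transcript abundance per length scaled to a fixed total per library, given as the mean ± SD of the libraries (n = 2), and the errors of ratios between libraries cover counting error only.

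Steroid synthesis begins when cholesterol reaches the inner mitochondrial membrane, where the side-chain cleavage enzyme Cyp11a1 converts it to pregnenolone. StAR acts at the mitochondrial surface, and the delivery it mediates is the acutely hormone-controlled step in adrenal cortex cells. Corticotropin raises cyclic AMP there, which increases both Star transcription and phosphorylation of the protein. The other START proteins carry sterols or phospholipids between organelles. Tspo is a cholesterol-binding protein of the outer mitochondrial membrane, Dbi is an acyl-CoA-binding protein that also binds Tspo, and Acbd3 is a Golgi protein that binds Tspo and protein kinase A. The need for Tspo in steroid synthesis has been disputed on the basis of knockout mice.

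The sequences below show where the coding sequences of the annotated forms of Star and Dbi begin. The coding forms of Dbi differ in these starts, whereas both annotated forms of Star share their start codon. They are in the 5′ to 3′ direction of the RNA, taken from the GENCODE transcripts of mm10. The first is the start of the Star coding sequence (from chr8:25808569, + strand), which encodes the leader that takes StAR into mitochondria, with the start codon in capitals.
Star-201: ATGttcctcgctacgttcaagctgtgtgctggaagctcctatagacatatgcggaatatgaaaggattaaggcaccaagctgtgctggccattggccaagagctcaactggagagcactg
The second annotated coding transcript, Star-202, has 471 annotated coding bases, and all of them match the beginning of the 852 coding bases of Star-201. The 3 protein-coding transcripts of Dbi (chr1:120113280-120121078, − strand) begin their coding sequence at 3 different places. Capitals mark the coding bases of the first coding exon in Dbi-201 and Dbi-207, and the start codon in Dbi-202.
Dbi-201: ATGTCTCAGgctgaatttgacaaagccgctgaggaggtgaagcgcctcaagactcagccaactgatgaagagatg
Dbi-207: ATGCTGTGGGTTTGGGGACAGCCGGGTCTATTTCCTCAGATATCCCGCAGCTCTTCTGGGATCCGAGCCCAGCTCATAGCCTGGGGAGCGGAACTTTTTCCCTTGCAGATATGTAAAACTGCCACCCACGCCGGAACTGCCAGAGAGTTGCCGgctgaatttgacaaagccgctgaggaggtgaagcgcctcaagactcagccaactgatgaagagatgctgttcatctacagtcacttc
Dbi-202: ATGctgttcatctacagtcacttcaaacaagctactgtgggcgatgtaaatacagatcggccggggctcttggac
Dbi-201 and Dbi-207 differ in their first exon, which contributes 9 coding bases in Dbi-201 and 153 in Dbi-207, and then share 252 coding bases. Dbi-202 begins its coding sequence at coding base 73 of Dbi-201, so that it lacks the 72 bases before it.

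All 8 genes reached 1 TPM in each library, the limit used for calling a gene detected, and 56.2% of protein-coding genes met it. Star was the highest of the 8 by a wide margin. It had 5825 TPM in replicate 2 and 5583 TPM in replicate 1, a mean of 5704 ± 171 TPM, and ranked 2 among protein-coding genes in each library. Star took 1.20% of the counts of annotated genes in replicate 2 and 1.13% in replicate 1. The RNA of whole glands mixes cortex, medulla and other cells, and fewer cells of a type and less RNA per cell cannot be told apart in it.

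Within the 8 genes, Star held 93.3% of the summed TPM in replicate 2 and 92.0% in replicate 1. Its level was 12.7 ± 1.77 times the sum of the other 7 (14.0 in replicate 2 and 11.5 in replicate 1). Star stood at 2.12 times the TPM of Cyp11a1 in replicate 2 and 1.95 times in replicate 1. With all Star counts over the length of Star-201, Star was at 3136 TPM in replicate 2 and 2912 TPM in replicate 1. Cyp11a1, not treated likewise, was at 2747 and 2869 TPM. The rank of Star was not recomputed that way. The size of the Star level depends on how its reads are divided between its transcripts, as described further on, but Star stayed above the other 7 in each alternative tried.

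**Figure D1:**
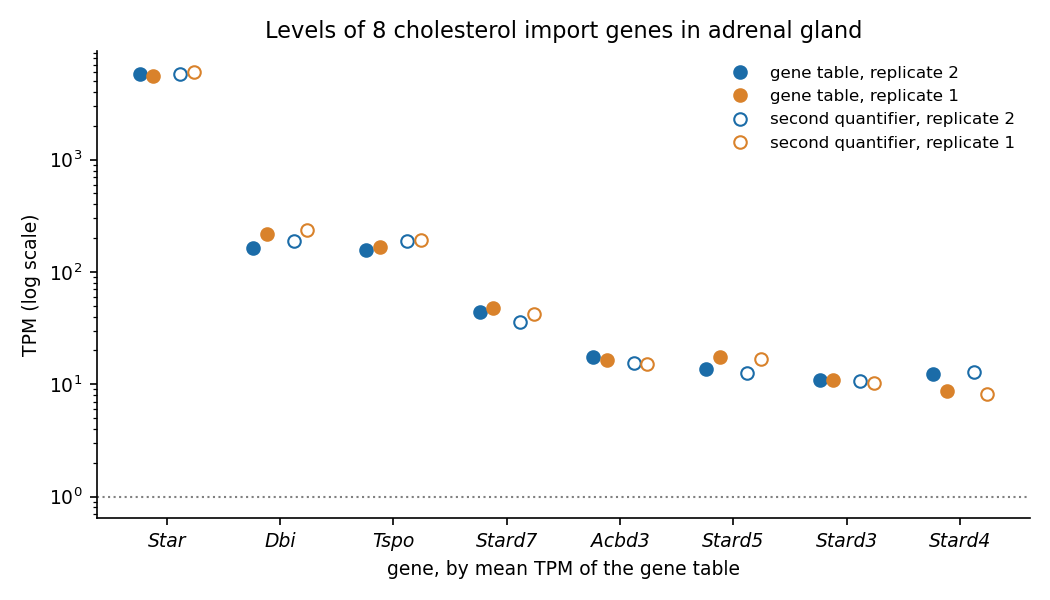
Level of each gene in TPM on a log scale, for replicate 2 (blue) and replicate 1 (orange), in the gene table (filled) and in the second quantifier (open); the dotted line marks the detection limit of 1 TPM. Star stands at 5704 TPM, Dbi and Tspo lie at 189 and 162 TPM, and 4 genes lie between 10.5 and 17.0 TPM.

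Tspo and its ligand came next. Dbi had 162 TPM in replicate 2 and 217 TPM in replicate 1 (mean 189 ± 38.7 TPM, rank 211 of the protein-coding genes). Tspo had 156 TPM in replicate 2 and 169 TPM in replicate 1 (mean 162 ± 8.59 TPM, rank 255). Within each library Dbi stood above Tspo, at 1.04 times in replicate 2 and 1.29 times in replicate 1. The margin in replicate 2 was small and the ranges over the libraries overlapped, so their order is not resolved by 2 libraries. Acbd3, the partner at the Golgi, was far below both, with 17.5 TPM in replicate 2 and 16.5 TPM in replicate 1 (mean 17.0 ± 0.679 TPM). Acbd3 thus lay below the lower library of both Dbi and Tspo.

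Among the START genes of the 8, Stard7 followed Star. Stard7, which carries phosphatidylcholine to mitochondria, had 43.9 TPM in replicate 2 and 47.9 TPM in replicate 1 (mean 45.9 ± 2.82 TPM, rank 1459). Stard5, a soluble START protein of the cytosol, had 13.6 TPM in replicate 2 and 17.4 TPM in replicate 1. Stard3, which is anchored in late endosomes with its START domain in the cytosol, had 11.0 TPM in replicate 2 and 11.0 TPM in replicate 1 (SD 0.0141). Stard4, a soluble sterol carrier whose gene responds to low sterol, had 12.4 TPM in replicate 2 and 8.65 TPM in replicate 1. These 3 genes lay near the median detected protein-coding gene, which was at 12.5 TPM in replicate 2 and 12.3 TPM in replicate 1.

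By mean level the order was Star, Dbi, Tspo, Stard7, Acbd3, Stard5, Stard3 and Stard4. The libraries' ranges overlapped for the neighbours Dbi and Tspo, Acbd3 and Stard5, and Stard3 and Stard4. They did not overlap for the other 4 neighbouring pairs. The largest step was that between Star and Dbi, 36.0-fold in replicate 2 and 25.8-fold in replicate 1. Tspo stood 3.54 ± 0.0306 times above Stard7. Stard3, Stard4, Stard5 and Acbd3 summed to 54.4 TPM in replicate 2 and 53.6 TPM in replicate 1, below the level of Dbi or of Tspo alone. A second set of values made from the same reads, here called the second quantifier, gave the same order of means. It put Star at 5755 TPM in replicate 2 and 6037 TPM in replicate 1, and Stard4 at 12.8 TPM in replicate 2 and 8.15 TPM in replicate 1.

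The genes lie on 7 chromosomes, Dbi and Acbd3 both on chromosome 1, and their annotated sizes and surroundings bear on what the counts hold. Star spans chr8:25806555-25815982 (+ strand). Tspo spans chr15:83563592-83574203 (+ strand) and shares 53 exon bases with Mcat on the opposite strand, which had 698 counts in replicate 2 and 766 in replicate 1. Stard5 spans chr7:83631959-83653127 (+ strand) and shares 1202 exon bases with Il16 on the opposite strand and 101 with Gm45838 on its own strand. Il16 had 139 counts in replicate 2 and 195 in replicate 1, and Gm45838 had 92 and 108. The libraries keep strand, per the labels' kit, but the strand setting of the counting is not given in the sources used here, so reads of the overlapping parts cannot be assigned with certainty. Acbd3 (chr1:180726043-180754204, + strand) overlaps the antisense gene Gm37768 without sharing exon bases, and Gm37768 had 0 counts in both libraries. Stard3 (chr11:98358368-98381112, + strand), Stard4 (chr18:33199355-33213862, − strand) and Stard7 (chr2:127270218-127298932, + strand) share no exon bases with another annotated gene.

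A near-identical copy elsewhere could also take or give reads. A search of the leading coding transcript of each gene against all annotated transcripts, at 90% identity or more over at least 200 bases, found 1 copy among the 8 genes. It was the processed pseudogene Gm12222 of Dbi on chromosome 11, which matches 261 bases of Dbi at 93.9% identity. Gm12222 had 0 counts in both libraries. Any read from it that was assigned to Dbi would not show in these values, so the Dbi count is uncertain to that extent.

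The next question was how closely the 2 libraries agreed on each gene. Of the 8 genes, 0 differed by 1.5-fold or more between the libraries. Of 16380 genes whose mean count reached 20, 6.70% did, and of 8778 genes whose mean count reached 400, the range in which all 8 lie, 0.934% did. A count of 0 is thus near the background and is no result about these genes. On the log2 scale of replicate 2 over replicate 1, 4 of the 8 were higher and 4 lower in replicate 2, against 48.6% of all genes counted as higher, and their median was −0.04 beside −0.01 over all genes. Scaling by spike-in totals moved the median of all genes to −0.10, so values under that scaling are read relative to it.

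Dbi had 1901 counts in replicate 2 and 2734 in replicate 1, a log2 ratio of −0.38 (counting SE 0.043). Stard5 had 532 counts in replicate 2 and 844 in replicate 1, a log2 ratio of −0.52 (counting SE 0.080). Stard4 had 945 counts in replicate 2 and 811 in replicate 1, a log2 ratio of 0.36 (counting SE 0.069). These 3 lay outside the central 95% of the genes whose mean count reached 400, which ran from −0.36 to 0.30. That floor was added after the data were seen, and the band pools genes of all higher counts. Ratios spread more widely at lower counts, and 6.70% of genes with a mean count of 20 or more passed 1.5-fold. The size of the ratio exceeded that of 98.6% of those genes for Stard5, 96.5% for Dbi and 96.0% for Stard4.

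Stard7 and Tspo were lower in replicate 2 by smaller amounts. Stard7 had 2779 counts in replicate 2 and 3578 in replicate 1 (log2 ratio −0.22, counting SE 0.036), and Tspo had 2930 and 3548 (log2 ratio −0.13, counting SE 0.036). Dbi, Stard5, Stard7 and Tspo were lower, and Stard4 higher, in replicate 2 under each of the 5 other scalings and units tried. DESeq2 size factors, total counts and spike-in totals reuse the same counts and shift the 8 genes by nearly the same amount. They are thus no separate check of direction. By the second quantifier Tspo was at −0.03, beside a median of −0.02 over all genes, so that value gives no direction. Star had 316539 counts in replicate 2 and 329156 in replicate 1, a log2 ratio of 0.09 (counting SE 0.0036). The Star ratio was −0.07 by the second quantifier, so no direction is given for it. The ratio of Stard3 (0.18, counting SE 0.095) was −0.0026 in TPM. That of Acbd3 (0.06, counting SE 0.052) was close to its counting error.

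**Figure D2:**
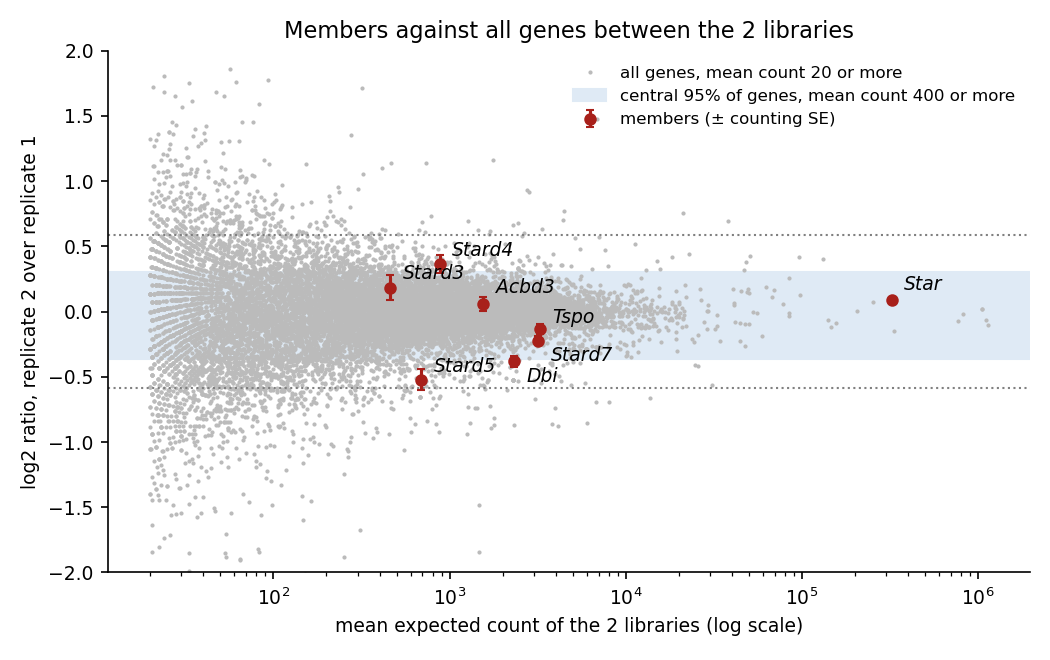
Log2 ratio of replicate 2 over replicate 1 against the mean expected count (log scale) for all genes with a mean count of 20 or more (grey) and for the 8 genes (red, with counting SE); dotted lines mark 1.5-fold and the band the central 95% of genes with a mean count of 400 or more. Stard5 and Dbi lie below the band and Stard4 above it; 53 genes beyond the plotted range of 2 in either direction are not drawn.

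Markers of other tissues also differed between the libraries. All 4 adipocyte markers, Adipoq, Plin1, Cidec and Lep, were lower in replicate 2, and they summed to 146 TPM (replicate 2) and 246 TPM (replicate 1), with a median log2 ratio of −0.86. The 4 macrophage markers summed to 57.0 TPM in replicate 2 and 63.5 TPM in replicate 1 and were split by counts. Cd68 (log2 ratio −0.72, past 1.5-fold) and Adgre1 (−0.53) were lower in replicate 2, Csf1r was at 0.14 and C1qa at 0.03, and the median was −0.25. Tspo, Dbi and Stard5 are also expressed outside the cortex, and the part of these markers in their ratios was not tested. Of the 6 cortex markers, 3 were higher and 3 lower in replicate 2, and they summed to 4948 TPM in replicate 2 and 5102 TPM in replicate 1. The 4 medulla markers, all higher in replicate 2 by counts, summed to 1550 TPM in replicate 2 and 1337 TPM in replicate 1, the 4 endothelial markers to 171 and 168 TPM, and 0 of 4 kidney markers reached 1 TPM.

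Stard4 is a target of the sterol-sensing factor Srebf2, and other sterol-responsive genes were given beside it. Hmgcs1, an enzyme of cholesterol synthesis, Insig1, which holds back sterol-sensing factors, Sqle, a further enzyme of the pathway, and Srebf2 itself were all higher in replicate 2 by counts, with a median log2 ratio of 0.23, while 48.6% of all genes were higher. By spike-in totals their median was 0.13, where the median of all genes was −0.10. Insig1 had 59.4 TPM in replicate 2 and 45.8 TPM in replicate 1 (log2 ratio 0.35), and Sqle had 23.9 and 18.4 TPM (log2 ratio 0.36). Hmgcs1 (0.11) and Srebf2 (0.08) had smaller log2 ratios, and Srebf2 was at −0.02 by spike-in totals. These genes were named after their values were seen. None of the 4 passed 1.5-fold. Stard4 was also higher in replicate 2 by counts. The libraries are 2 samples of 1 group, and nothing about its regulation was tested.

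The transcript tables were used to ask which annotated forms make up each level. For Star, the share of reads and the share of TPM of a transcript were far apart. Star-201, the complete transcript of 4046 bases, held 274145 counts in replicate 2 and 282027 in replicate 1. Star-202, of 633 bases, is annotated with an open 3′ end, which means that the model stops before the true end of the RNA. It held 42394 counts in replicate 2 and 47129 in replicate 1, which was 13.4% of Star counts in replicate 2 and 14.3% in replicate 1. Because TPM divides by length, these reads made up 53.4% of Star TPM in replicate 2 and 55.3% in replicate 1.

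Star-202 shares 566 of its bases with Star-201 and has 67 of its own, and it starts 1919 bases upstream. The second quantifier gave it 58.3% of Star TPM in replicate 2 and 62.2% in replicate 1. By counts its share there was 12.6% in replicate 2 and 15.3% in replicate 1, near the 13.4% and 14.3% of the gene pipeline. The length by which its counts were divided was 394 bases in replicate 2 and 420 in replicate 1 there, against 533 in the gene pipeline. When all Star counts were divided by the length of Star-201 instead, Star was at 3136 TPM in replicate 2 and 2912 TPM in replicate 1, 1.89 times lower than in the gene table. Star then stood at 7.19 times the sum of the other 7, with those genes treated likewise. This calculation was chosen after the data were seen. The order of the 8 means was the same under it, but in replicate 2 Stard5 (8.73 TPM) fell below Stard3 (9.27 TPM).

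**Figure D3:**
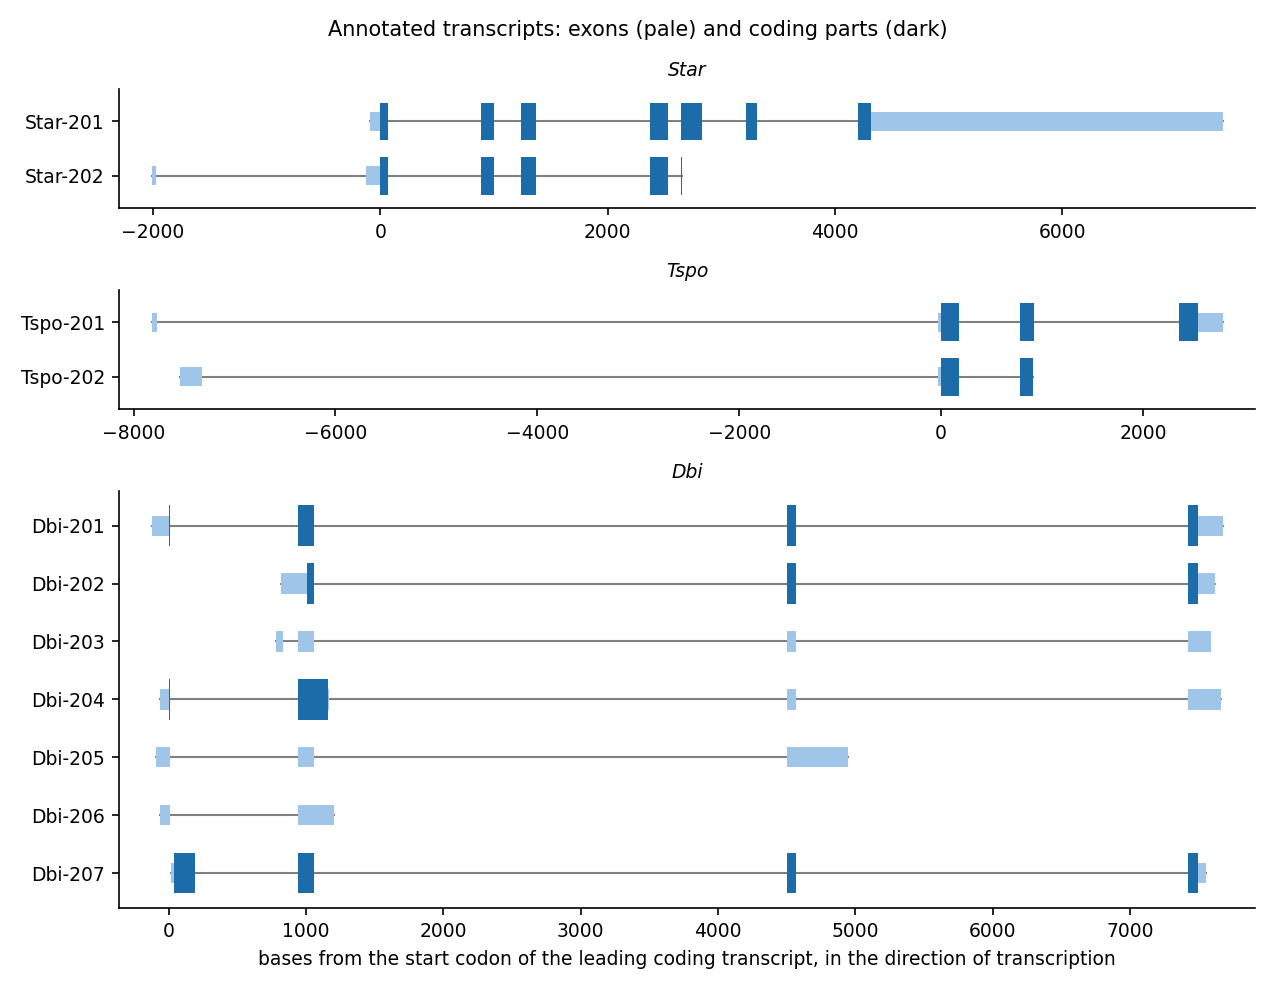
Annotated transcripts of Star, Tspo and Dbi, drawn to scale within each gene in bases from the start codon of the coding transcript with the most counts, with exons pale and coding parts dark. Star-202 and Tspo-202 stop before the last exons of Star-201 and Tspo-201, and Dbi-202 begins its coding part inside an exon of Dbi-201.

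For Tspo and Dbi the 2 quantifications gave similar gene levels but different transcript shares. The 8 genes differed by less than 1.5-fold between the gene table and the second quantifier (0 of 8 past that limit), where 13.3% of 15872 genes passed it. For 8 genes a count of 0 is near that share and is no result about them. The 15872 genes include those with levels down to 1 TPM. The ratios of gene table over second quantifier ran from 0.857 for Tspo to 1.18 for Stard7, and 5 of the 8 were higher in the gene table, as were 59.4% of all genes compared. Tspo-201 held 98.4% of Tspo TPM in replicate 2 and 99.3% in replicate 1 in the pipeline of the gene table. In the second quantifier it held 62.6% in replicate 2 and 69.9% in replicate 1. The rest went to Tspo-202, which also has an open 3′ end, starts 283 bases downstream and shares all its 308 annotated coding bases with Tspo-201.

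Dbi moved further. Dbi-201 held 86.6% of Dbi TPM in replicate 2 and 78.7% in replicate 1 in the gene pipeline, against 31.3% and 34.6% in the second quantifier. Dbi-202, which lacks the first 72 coding bases printed above, held 9.88% in replicate 2 and 5.35% in replicate 1 in the gene pipeline, against 63.1% and 58.4% in the second quantifier. The transcripts that differ are short, 569 bases for Dbi-201 and 504 for Dbi-202, and Dbi-201 has 41 bases found in no other Dbi transcript. Dbi-203, a non-coding form, had 0 counts in replicate 2 and 248 in replicate 1, with a posterior SD of 68.6, in the gene pipeline. The second quantifier gave it 0 and 69.5 counts. Dbi-207, with the long alternative first exon, had 14.6 counts in each library and at most 0.90% of Dbi TPM in the gene pipeline. In the second quantifier it had 45.0 counts in replicate 2 and 11.9 in replicate 1. Dbi-202 starts 940 bases downstream of Dbi-201. Which of Dbi-201 and Dbi-202 was the main form is not settled by these files.

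Of the remaining genes, Acbd3 had the steadiest transcript shares. Its coding form of 3471 bases held 94.1% of Acbd3 TPM in replicate 2 and 94.2% in replicate 1, and a retained-intron form held the rest. The coding form of Stard7 with 3116 bases held 66.0% of Stard7 TPM in replicate 2 and 72.1% in replicate 1, and 69.3% and 71.6% in the second quantifier. The coding form of Stard5 with 2483 bases held 52.7% of Stard5 TPM in replicate 2 and 61.0% in replicate 1, and 2 retained-intron forms and a non-coding form held most of the rest.

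Stard3 has a single coding form, of 2070 bases. This form held 62.4% of Stard3 TPM in replicate 2 and 48.3% in replicate 1, or 6.87 TPM in replicate 2 and 5.32 TPM in replicate 1. In the second quantifier it held 58.7% in replicate 2 and 47.8% in replicate 1. Stard3 thus had nearly the same gene level in TPM in both libraries with a coding share that differed. By counts the gene was higher in replicate 2 (log2 ratio 0.18). Its mean transcript length, which depends on the transcript split and enters TPM, was 1759 bases in replicate 2 and 1539 in replicate 1. The coding counts were 346 in replicate 2 and 300 in replicate 1, with posterior SDs of 20.6 and 18.9.

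The longest coding form of Stard4, of 5097 bases, held 54.1% of Stard4 TPM in replicate 2 and 59.9% in replicate 1. A coding form of 648 bases, each of them also present in another Stard4 transcript, held 34.6% in replicate 2 and 20.3% in replicate 1. The second quantifier gave this short form 21.9% in replicate 2 and 0% in replicate 1. It rested on 60.0 counts in replicate 2 and 27.5 in replicate 1, with posterior SDs of 14.4 and 12.1, whereas the long form held 854 counts in replicate 2 and 741 in replicate 1. The Stard4 ratio between libraries was 0.36 on the log2 scale of counts, 0.51 in TPM and 0.64 in the TPM of the second quantifier.

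**Figure D4:**
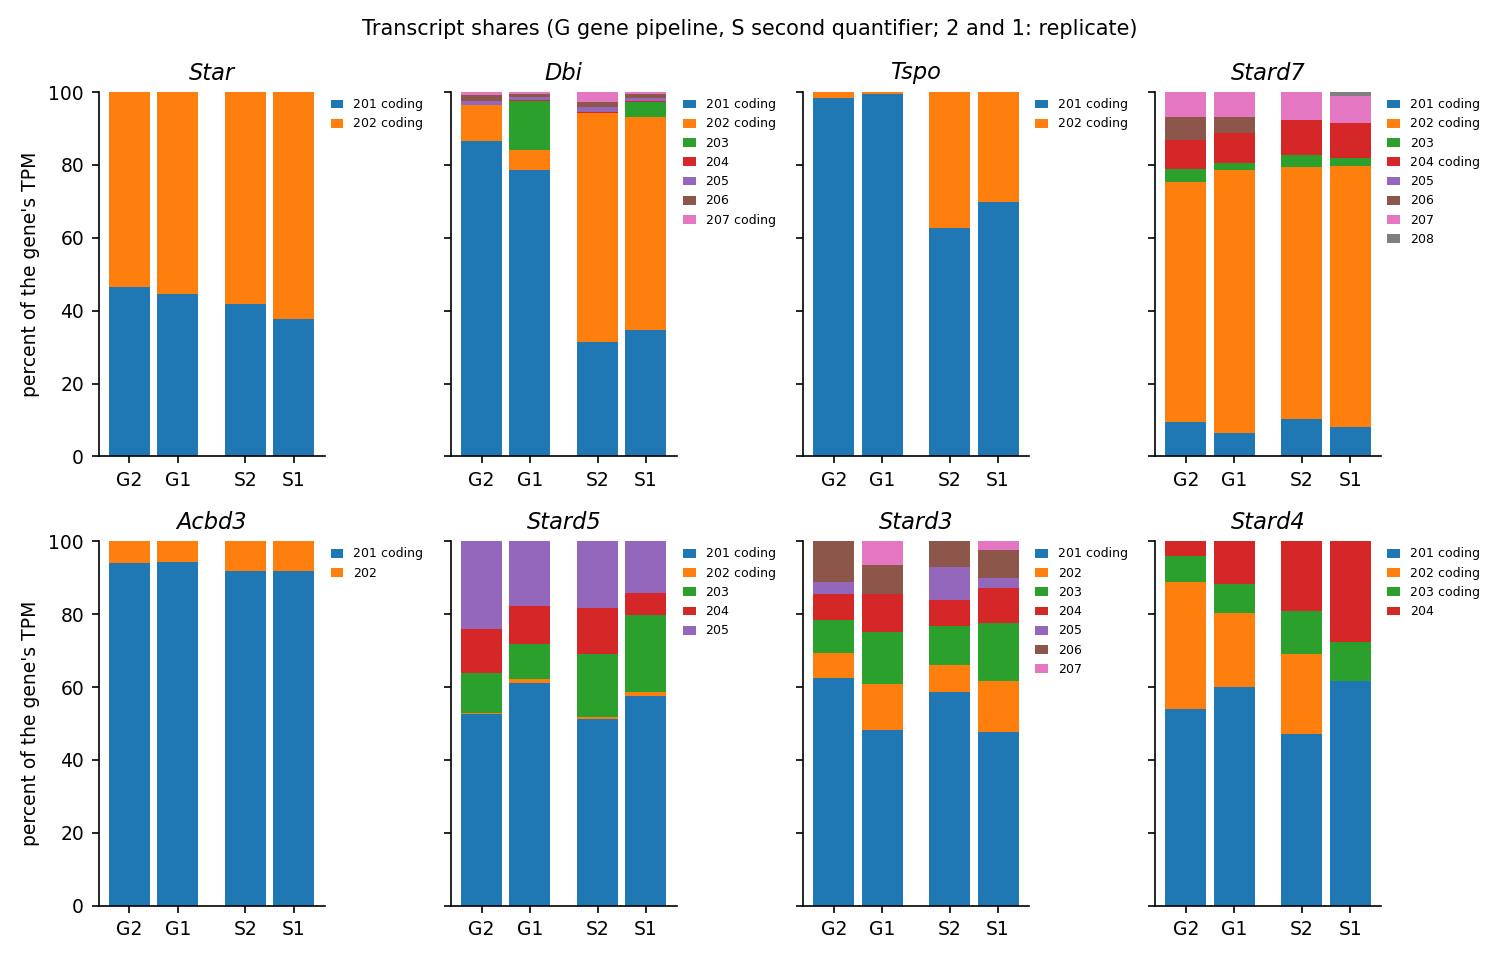
Percent of each gene's TPM held by each annotated transcript, in the gene pipeline (G) and the second quantifier (S) for replicates 2 and 1; the legends give transcript numbers. The split of Star TPM moves by 5.91 percentage points between quantifications, that of Tspo TPM by 32.6 and that of Dbi TPM by 54.4.

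The genes that surround this step were given by list. All 10 other START domain genes were detected. Their median level was 6.75 TPM (replicate 2) and 7.36 TPM (replicate 1), and Stard10 (56.5 and 63.2 TPM), Dlc1 (44.2 and 46.4 TPM) and Cert1 (34.2 and 30.6 TPM) were the highest. Star was thus the highest of the START genes measured, and Stard10 was above Stard7 in both libraries. Of the other acyl-CoA-binding genes and Tspo2, 4 of 7 were detected, Acbd4 at 57.4 TPM in replicate 2 and 58.9 TPM in replicate 1 being the highest, followed by Eci2 at 46.6 and 41.7 TPM. Acbd7, Dbil5 and Tspo2, the Tspo paralog of red cell precursors, were not detected. Each of these 3 had at most 3 counts in either library, where 3 counts is also the limit that a count of 0 allows.

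The genes of the proteins said to act with Tspo and StAR at the mitochondrial membrane were all detected as RNA. The median level of these 12 genes was 47.9 TPM (replicate 2) and 45.7 TPM (replicate 1). Vdac1, the outer membrane channel, led with 150 TPM in replicate 2 and 142 TPM in replicate 1, followed by Acsl4, an acyl-CoA synthetase, with 102 and 105 TPM. Tspo was above Vdac1 in both libraries. All 6 genes of import processing and turnover were detected, and Lonp1, the matrix protease that degrades imported StAR, had 234 TPM in replicate 2 and 219 TPM in replicate 1. Pmpcb, a subunit of the protease that removes import leaders, followed with 70.8 and 69.8 TPM.

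Downstream of import, Cyp11a1 had 2747 TPM in replicate 2 and 2869 TPM in replicate 1. Fdxr, the reductase that feeds it electrons, had 732 TPM in replicate 2 and 736 TPM in replicate 1, and the carrier Fdx1 had 773 and 594 TPM. Of 11 transcription factors described at the Star promoter, 10 were detected. Nr5a1, the steroidogenic factor of the cortex, was the highest with 147 TPM in replicate 2 and 126 TPM in replicate 1, followed by the orphan receptor Nr4a1 with 58.8 and 64.6 TPM. Gata4, at 0.28 and 0.16 TPM, was not detected. Crem, a cyclic AMP-responsive factor, had 24.3 TPM in replicate 2 and 41.5 TPM in replicate 1 and was, of the factors whose mean count reached 20, the single one past 1.5-fold by counts (log2 ratio −0.92). It was also lower in replicate 2 by spike-in totals, in TPM and in the second quantifier. Nr4a1 was at 0.42 by counts and at −0.60, past 1.5-fold the other way, in the second quantifier. Star itself differed by 1.06-fold by counts between the same libraries. Any relation of these factors to Star was not tested.

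Of 10 other intracellular sterol carriers, 9 were detected, and Gramd1c was not. Gramd1b, which moves cholesterol from the plasma membrane to the endoplasmic reticulum, was the highest, with 203 TPM in replicate 2 and 123 TPM in replicate 1, and was the single gene of the list past 1.5-fold (log2 ratio 0.75, or 0.45 with the second quantifier, which is short of it). Scp2 (65.8 and 66.2 TPM) and Npc1, the late endosomal cholesterol exporter (mean 45.7 ± 6.07 TPM), followed. Stard3nl, which resembles the membrane anchor of Stard3 and lacks a START domain, had 13.0 TPM in replicate 2 and 12.6 TPM in replicate 1, close to Stard3. Each of Gramd1b, Scp2 and Npc1 stood above Stard3, Stard4 and Stard5 in both libraries.

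**Figure D5:**
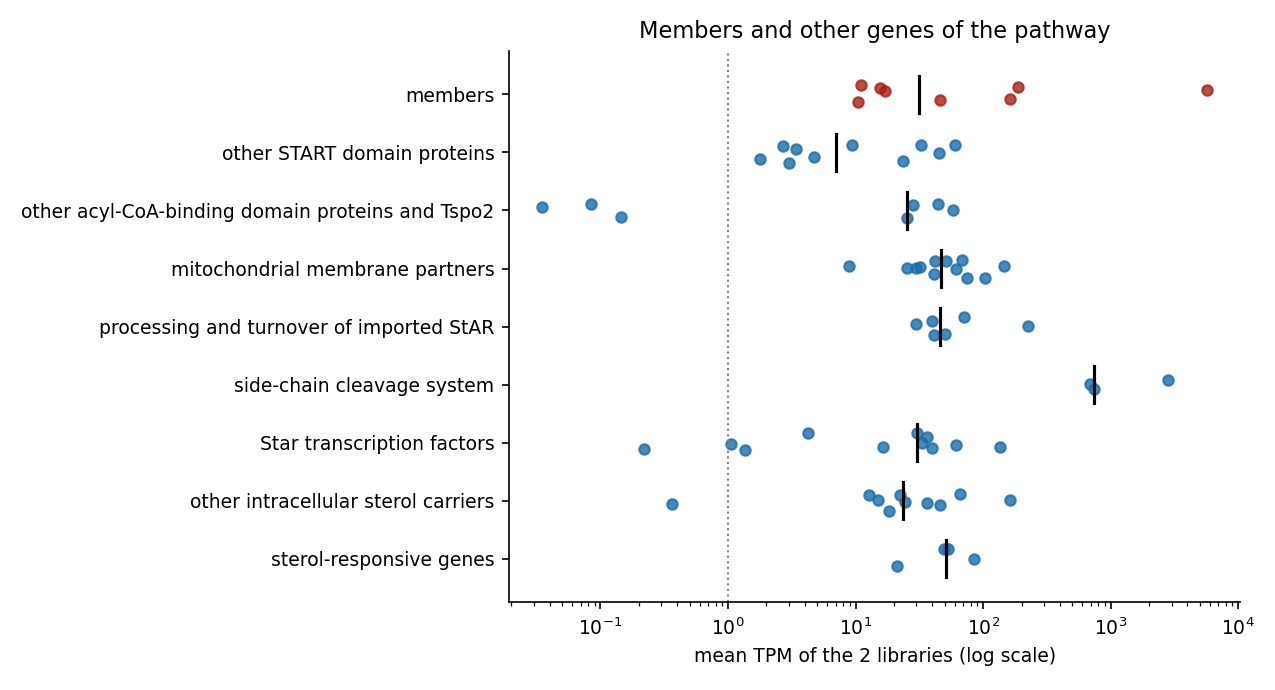
Mean TPM of the 2 libraries (log scale) for the 8 genes (red) and for each list of further pathway genes (blue), with 1 point per gene and the list's median as a black line; the dotted line marks 1 TPM. Star and Cyp11a1 stand apart on the right, and Acbd7, Dbil5, Tspo2, Gata4 and Gramd1c lie left of the line.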

How the data were processed

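The authors deposited, for each library, a gene table with expected counts, TPM and FPKM, built on the mm10 genome and the GENCODE M21 annotation according to the deposited library notes. Transcript tables of the same pipeline give expected counts, their posterior SD and the percent that a transcript takes of its gene (per the file headers). Another transcript table that the authors deposited, called the second quantifier, gives estimated counts and TPM from the same reads and was summed here per gene. For the aligner and quantifiers, names and versions were not given in the sources used here. RNA input was 300 ng with added spike-ins, per the labels.

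Totals over annotated genes were 26322473 counts (replicate 2) and 29204658 counts (replicate 1), spike-ins and entries that name no gene being left out (spike-ins held 0.504% and 0.468% beside them). Expected counts were rounded to whole numbers, and log2 ratios used TMM-scaled totals (edgeR 4.0.16, R 4.3.3) and a prior count of 0.5, with Poisson standard errors. Reads are not independent molecules, so these cover counting error only. Ratios between quantifiers used a pseudocount of 0.1 TPM. The computation was tested on simulated counts. Lengths were shortened by 100 bases per transcript in the gene pipeline and by about 239 (replicate 2) or 213 (replicate 1) in the second quantifier. Copies were sought with BLAST 2.17.0. Python 3.11.15, pandas 2.3.3, numpy 2.4.6, matplotlib 3.10.9 and DESeq2 1.42.0 (size factors, an alternative) were also used. No p-values were computed. Reads of CAST alleles were counted against mm10, and the effect was not analysed.

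The 8 genes, the gene lists and the marker lists were chosen with earlier results of these data known. Named were all 8 genes with their transcripts and, of each list, the 2 to 4 highest genes and those not detected; Crem, Stard3nl, the adipocyte and macrophage markers and the sterol-responsive genes were also named after their values were seen. With 2 libraries of 1 tissue, no likeness of pattern to other genes was computed. Cert1 was matched under an older symbol. Some genes of the lists are not reported here.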

Additional observations from a re-analysis of the deposited data

How the results depend on the processing

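All 8 genes stayed detected with the second quantifier, at limits of 0.5 and 2 TPM, in FPKM and in either library alone (8 and 8). Star over the sum of the other 7 was 12.0 with the second quantifier and 12.6 with posterior means, ran from 11.5 to 14.0 when a library was left out, and moved to 26.4 in expected counts, which are not divided by length, and to 7.19 with all counts over the leading coding transcript, an alternative chosen after seeing the data. The count past 1.5-fold between the libraries, 0, was 1 by spike-in totals (Stard5, −0.62, where the median of all genes was −0.10) and 1 by the second quantifier (Stard4, 0.64), and 0 with the other scalings, without a count filter and at a mean count of 400 or more, added after seeing the data. The count past 1.5-fold between quantifiers was 0 under each pseudocount, without a filter and in each library. The Star-202 share of 54.3% ± 1.36 was 60.2% with the second quantifier and ran from 53.4% to 55.3% over the libraries. Of the 8 levels, 5 moved by more than their SD with the second quantifier (0.847 to 1.17 times). With TPM rescaled over protein-coding genes all 8 were 2.72 to 2.73 times higher. No paired analysis was possible because the 2 libraries form 1 group. Genes with few counts, such as Stard3 and Stard5, have counting errors of 0.095 and 0.080 on the log2 scale.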
